A study of Mus musculus with 6 samples.

Results

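The small RNAs described here are predicted piRNAs: entries of a small RNA count table that are typed as piRNA, that carry no catalogue number, and whose description names a transposable element. Of 26351 predicted piRNAs in the table, the 577 that reached at least 100 tags in at least 1 of 6 libraries were taken, out of 61628 entries of all kinds. The members were thus selected on their tag counts in these same libraries, and their levels are given as a description. The libraries came from primary mouse peritubular myoid cells (strain C57BL/6J), the contractile somatic cells that wrap the seminiferous tubules. The cells were cultured with fetal bovine serum. In 3 libraries the cells were untreated, and in 3 they had received 50 nM endothelin-1 (ET1), a peptide that contracts smooth muscle, for 5 min. All 6 libraries are labelled as total RNA of cells of the same kind, and nothing in the labels ties a library to its own culture or animal. The p-values below thus rest on library-to-library spread, part or all of which may be technical.

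piRNAs are small RNAs, longer than miRNAs, that load onto PIWI proteins and guide the silencing of transposons. In the mammalian testis they belong to the germ line, where one group derives from transposon sequence and another from long intergenic transcripts. Somatic cells largely lack PIWI proteins, and a match to a transposon does not by itself show that a small RNA is bound by PIWI. The table holds neither the tag sequence, nor its length, nor a measure of PIWI binding, so the label piRNA could not be checked at the level of single tags.

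Library depth was 18127265 to 20895432 tags. Tags of known miRNAs made up 30.1% to 45.6% of the untreated and 22.6% to 25.5% of the ET1 libraries, and rRNA fragments 3.22% to 5.63% and 7.12% to 11.02%; their part in the results below was not tested. The smooth muscle miRNAs fixed as markers of the labelled cell type (6 of 6 found) summed to 5940 to 10409 RPM (tags of the entry per 1000000 tags of the library) in untreated and 3183 to 4560 RPM in ET1 libraries, led by miR-143-3p. The germ cell list (9 of 10 found, miR-469 unmatched) summed to 11481 to 27341 and 11661 to 18577 RPM, led in every library by miR-470-5p, a testis-enriched miRNA of the X chromosome (10219 to 26875 RPM). miR-871-3p ranged from 36.2 to 1305 RPM, highest in ET1 library 1; the 6 other markers detected in every library were at most 173 RPM, and miR-449c-5p was at 0 in 5 of 6 libraries. The Sertoli list summed to 264 to 495 and 182 to 464 RPM. The endothelial list summed to 319 to 682 and 29.5 to 47.5 RPM. The leukocyte list summed to 80.9 to 110 and 8.86 to 11.9 RPM. The red cell list summed to 48.6 to 264 and 130 to 368 RPM. The leukocyte sum was led by miR-150-5p (79.1 to 108 and 5.51 to 8.77 RPM). Its miR-142a-3p went the other way (0 to 0.29 and 0.41 to 0.72 RPM), and miR-223-3p and miR-142a-5p overlapped between the groups. The smooth muscle, endothelial and leukocyte sums were each lower in every ET1 library than in every untreated one. The part of these lists in the results below was not tested.

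The 577 members named 94 different repeats on 19 chromosomes, so they are not 577 independent loci. Of the 94 repeats 54 had a single member, and the 9 repeats with 10 or more members held 409 of the 577. The description gives the repeat that a member was matched to; whether the tags also match other copies of the same family was not stated in the sources used here, so a repeat is named below as an address and not as a proven origin. Positions are those of the table, in mm10, the build named by the submitters' processing notes. The repeats were 40 to 2777 bases long, with a median of 208.5.

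Among the annotated genes, 51 repeats (346 members, 74.9% of member tags) lay between genes of GENCODE M21. A further 34 lay in introns, 14 of them on the gene's own strand (62 members) and 20 on the other strand (79 members). Exons were overlapped by 9 repeats, 5 of them on the same strand (86 members, 10.3% of member tags). Sequences at 3 addresses are shown, because these addresses coincide with an annotated transcript or with each other. One is the start of the long non-coding RNA Gm26917 on chromosome 17, which overlaps a DNA transposon fragment of the hAT-Tip100 family with 57 members; Rn18s-rs5, an 18S ribosomal RNA related sequence in RefSeq, begins 3190 bases after that fragment on the same chromosome. The next is a fragment of the same family and of the same length, 166 bases, on chromosome 11, with 20 members; it lies between genes in GENCODE M21 but overlaps the start of the RefSeq gene Gm42092. The last is the precursor of miR-224, which nearly coincides with a short DNA transposon fragment on chromosome X. For the first pair, capitals mark the bases that both copies could be compared over; for the hairpin, capitals mark the mature arms.
Gm26917, chr17:39843013-39843163, plus strand, GRCm38: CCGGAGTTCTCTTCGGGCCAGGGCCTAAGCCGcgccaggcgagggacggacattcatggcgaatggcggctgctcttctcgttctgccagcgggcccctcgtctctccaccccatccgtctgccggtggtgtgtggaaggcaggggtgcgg
Gm42092, chr11:104073090-104073136, minus strand, GRCm38.p6: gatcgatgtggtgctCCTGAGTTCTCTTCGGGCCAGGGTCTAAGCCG
Mir224, chrX:72261031-72261112, minus strand, GRCm38.p6: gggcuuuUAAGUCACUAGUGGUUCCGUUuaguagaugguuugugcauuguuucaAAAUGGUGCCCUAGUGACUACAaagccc

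The first sequence is from the GENCODE M21 transcript and the others are from RefSeq. Of the 32 positions compared between the chromosome 17 and chromosome 11 fragments, 30 were identical. The Gm26917 stretch has a GC content of 68.2%. The matched tags of the members are not part of the table, and none is printed.

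The miR-224 address shows how a predicted piRNA can sit on an annotated small RNA gene. Its fragment (chromosome X, 72261034 to 72261109, minus strand) lies wholly inside the Mir224 precursor (72261031 to 72261112), itself in an intron of Gabre, which encodes a GABA-A receptor subunit. Of the 7 predicted piRNAs at this address only novel_pir26387 reached the member threshold, with 696, 303 and 375 tags in untreated libraries 1 to 3 and 363, 130 and 212 tags in ET1 libraries 1 to 3. The table's own entry for miR-224-5p had 259, 182 and 134 tags and 167, 53 and 146 tags in the same libraries. This predicted piRNA had more tags than the known miRNA at the same address in 6 of 6 libraries. Another address overlapped the exon of Mir669c (1 member, plus strand like the repeat), a miRNA of the Sfmbt2 cluster. A repeat of 1058 bases in an intron of Vav2 spans Gm24049, annotated as a miRNA (25 members). A further address overlapped an exon of the long non-coding RNA G930009F23Rik (2 members). Mir669o, Mir466d and Mir7688 were overlapped on the opposite strand, each by a repeat with 1 member. Only the address of a member is known, not its place within the repeat.

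By class, 256 members named a LINE, 242 an LTR retrotransposon and 79 a DNA transposon. LINE elements copy themselves through a reverse transcriptase of their own; LTR elements are relatives of retroviruses; DNA transposons move by excision and in the mouse are old and inactive. All but 1 of the LINE members were L1 (255 members on 14 repeats, 44.5% of member tags), the family that is still active in mice. The LTR members were spread over many more addresses: 137 on 18 repeats of ERVL-MaLR (16.3% of member tags), 31 on 18 repeats of ERV1 (16.6%), 35 on 21 repeats of ERVK (10.4%) and 39 on 18 repeats of ERVL (1.99%). Among all 26351 predicted piRNAs LTR elements made up 70.02% of the entries and LINE elements 25.2%, against 41.9% and 44.4% of the members; hAT-Tip100 made up 1.28% and 13.3%. The member threshold acts on the counts, so this contrast describes which addresses held the tags and is not tested.

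The L1 part of the member tags was 46.0%, 27.1% and 48.3% in untreated libraries 1, 2 and 3, and 51.9%, 49.2% and 36.9% in ET1 libraries 1, 2 and 3. Untreated library 2 was the lowest and the groups overlapped. ERVK took 8.41%, 23.9% and 10.3% in untreated and 8.998%, 7.73% and 6.85% in ET1 libraries, with untreated library 2 the highest. ERVL-MaLR took 11.2%, 11.2% and 14.5% in untreated and 17.9%, 22.2% and 20.6% in ET1 libraries. For ERVL-MaLR every ET1 library lay above every untreated one, and the chromosome 10 repeat described below held most of these tags.

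The most counted address was an L1 fragment on chromosome X (21679356 to 21680794, minus strand, between genes), with 47 members and 19.2% of all member tags. Its members summed to 2462, 1059 and 2891 RPM in untreated libraries 1, 2 and 3 and to 5547, 2654 and 846 RPM in ET1 libraries 1, 2 and 3. The highest and the lowest library were both ET1 libraries, 6.56-fold apart. Single members followed this order: 34 of 47 were highest in ET1 library 1 and 29 of 47 lowest in ET1 library 3. Among them novel_pir26333 had 5397, 3004 and 10402 tags in untreated and 15005, 7751 and 2756 tags in ET1 libraries, and novel_pir26321 had 2499, 1415 and 6326 against 9097, 4930 and 646 tags. Neither separated the groups.

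The address with the most members was an L1 fragment on chromosome 2 (90394491 to 90395211, plus strand, between genes), with 118 members and 18.8% of member tags. It stood at 2766, 1171 and 2448 RPM in untreated and 3115, 2718 and 2797 RPM in ET1 libraries, so that 5 of 6 libraries were close together and untreated library 2 was apart. Of its members 81 of 118 were lowest in untreated library 2. Its most counted member, novel_pir16254, did not follow the sum: it had 7722, 5943 and 8481 tags in untreated and 3675, 4827 and 5594 tags in ET1 libraries, every ET1 library below every untreated one. Members of 1 repeat can therefore differ in the order of the libraries.

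An ERVL-MaLR fragment of only 118 bases on chromosome 10 (42856810 to 42856927, minus strand, between genes) held 68 members and 11.8% of member tags. It stood at 1217, 618 and 1343 RPM in untreated and at 2387, 2183 and 1710 RPM in ET1 libraries. By RPM of all tags the groups did not overlap and ET1 was higher. Of its members 49 of 68 were lowest in untreated library 2. Between ET1 and untreated cells, 62 of its 68 members had a positive log2 fold change, with a median of 0.82. Over all members tested 60.5% were positive, and over all entries tested 50.8%. The 68 members share a repeat and count as 1 address. Summed over all 85 predicted piRNAs of the repeat, the levels were 1230 (untreated library 1), 625 and 1353 RPM against 2416, 2209 and 1720 RPM, without overlap. Scaled by trimmed mean of M-values (TMM), the same sums overlapped and the log2 fold change was 0.61 (SE 0.49, edgeR adjusted p = 0.87).

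The hAT-Tip100 fragment of chromosome 17 (39842998 to 39843163, plus strand) stood at 1168, 1321 and 939 RPM in untreated and 1526, 691 and 1524 RPM in ET1 libraries, with 57 members and overlapping groups. Its counterpart on chromosome 11 (104072971 to 104073136, minus strand) stood at 221, 73.3 and 140 RPM and 260, 75.2 and 25.8 RPM. The libraries were ordered differently at the 2 addresses: ET1 library 3 was near the top at the first and lowest at the second, where 18 of 20 members were lowest in it. rRNA fragments made up 3.22%, 4.82% and 5.63% of all tags in untreated and 7.12%, 11.02% and 10.2% in ET1 libraries. The part of rRNA in the tags of these addresses was not tested.

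**Figure D1:**
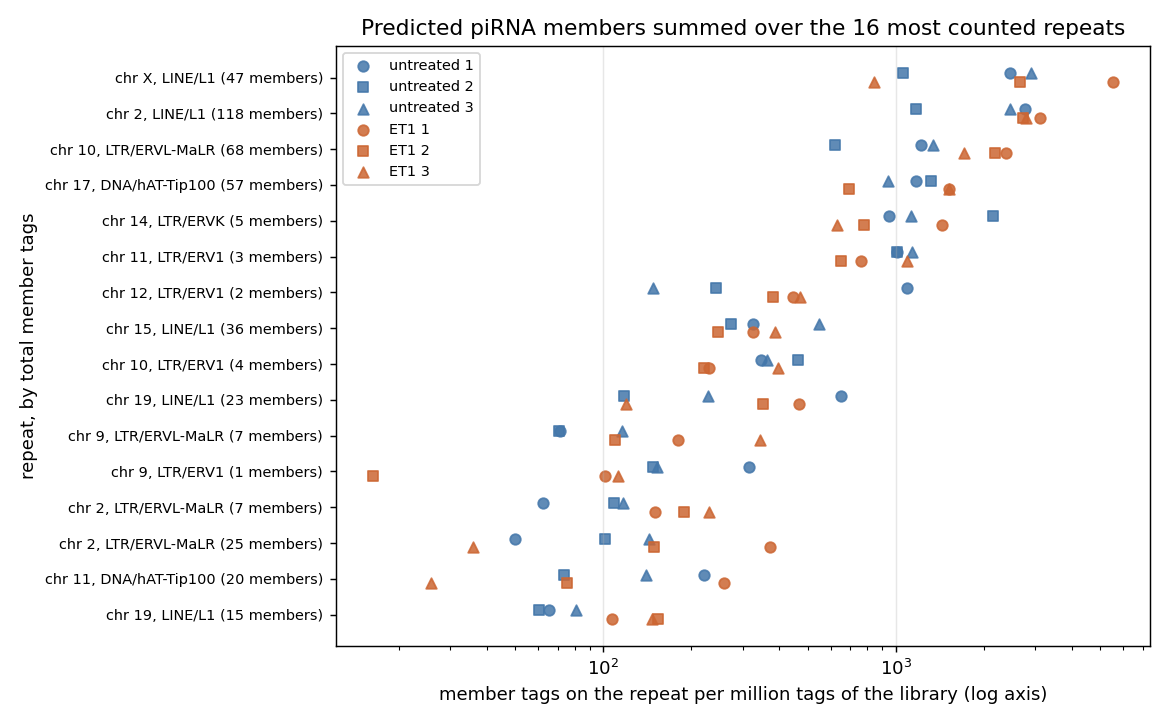
Member tags summed over each of the 16 most counted repeats, per 1000000 tags of the library, on a log axis; each point is 1 library, blue for untreated and orange for ET1, with the marker giving the library number. At the chromosome X L1 repeat both extremes are ET1 libraries (5547 and 846 RPM), and at the chromosome 10 ERVL-MaLR repeat the 3 ET1 libraries lie above the 3 untreated ones.

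Other addresses rested on few members. On chromosome 14 an ERVK fragment (31515238 to 31515829, plus strand, between genes) had 5 members, of which novel_pir8777 held 86.2% of the tags. This was the most counted of all predicted piRNAs, with 17062, 34785 and 19716 tags in untreated and 23262, 13458 and 10463 tags in ET1 libraries, the highest in untreated library 2. The groups overlapped. On chromosome 11 an ERV1 fragment (57559807 to 57559926, minus strand, between genes) was led by novel_pir6105, with 17949, 17279 and 20284 tags in untreated and 12372, 11005 and 18598 tags in ET1 libraries. By RPM its highest library was 1.73-fold its lowest, the smallest such ratio among the 10 most counted members.

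On chromosome 12 an ERV1 fragment (112020537 to 112020889, minus strand) lay in an intron of Tdrd9, on the strand opposite to the gene, which encodes a helicase of the germline piRNA pathway. Its member novel_pir6634 had 22782, 4473 and 2893 tags in untreated and 8006, 7360 and 9129 tags in ET1 libraries. Untreated library 1 held 41.7% of its tags over the 6 libraries. The ERV1 member novel_pir2189 on chromosome 10 (74719672 to 74719795, minus strand) had 4407, 7587 and 5917 tags in untreated and 2782, 2693 and 5138 tags in ET1 libraries. After TMM scaling every ET1 library of novel_pir2189 lay below every untreated one, but by RPM the groups overlapped.

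On chromosome 9 an ERV1 fragment (78248505 to 78248694, minus strand) had a single member. This member stood at 316, 148 and 152 RPM in untreated and 101, 16.3 and 113 RPM in ET1 libraries, without overlap. Summed over all predicted piRNAs of the fragment and scaled by TMM, the groups again did not overlap. The difference did not pass (log2 fold change −2.17, SE 0.75, edgeR adjusted p = 0.46). An ERVL-MaLR fragment on the same chromosome (114075469 to 114075807, minus strand), in an intron of Susd5 and opposite to it, stood at 71.02, 70.9 and 116 RPM and 180, 110 and 345 RPM; all 7 of its members were highest in ET1 library 3. On chromosome 19, 2 L1 fragments in the intron of Trpm3, a cation channel gene, on its own strand and close to each other (22851630 to 22851970 and 22852132 to 22852295), had 23 and 15 members. The first stood at 650, 118 and 228 RPM in untreated and 467, 351 and 120 RPM in ET1 libraries, and the second at 65.3, 60.5 and 80.5 RPM and 107, 155 and 147 RPM. Only the second was without overlap by RPM. Summed over all its predicted piRNAs and scaled by TMM, it overlapped too (log2 fold change 0.71, SE 0.45, edgeR adjusted p = 0.77).

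Over all pairs of members on the same repeat the median Pearson correlation across the 6 libraries, on log2(RPM + 0.05), was 0.57 (13548 pairs); over pairs on different repeats it was 0.17 (152628 pairs). The points share libraries and depth, and the pairs share members, so this is a description. The repeats with at least 5 members ranged from a median of 0.15 on the chromosome 14 ERVK fragment to 0.94 on the chromosome 9 fragment in Susd5. Of the 577 members, 198 were highest in ET1 library 1, 131 in ET1 library 3, 105 in ET1 library 2, and 67, 34 and 42 in untreated libraries 1, 2 and 3. Untreated library 2 was the lowest for 228 members, and ET1 library 1 for 23.

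**Figure D2:**
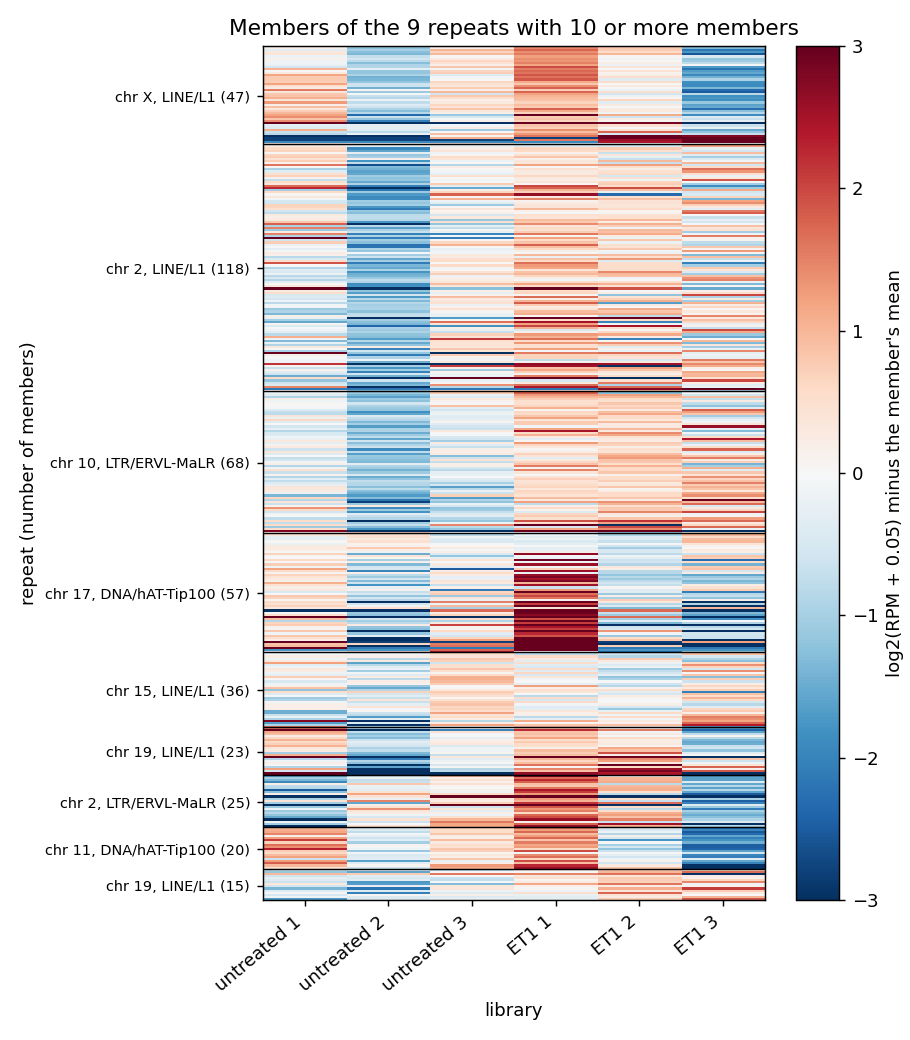
Each line is 1 of the 409 members on the 9 repeats with 10 or more members, and each column a library; the colour is log2(RPM + 0.05) minus the mean of that member over the 6 libraries, capped at 3 in either direction. Blocks of 1 repeat share a column pattern: untreated library 2 is low on the chromosome 2 L1 repeat (81 of 118 members lowest there), and ET1 library 3 is low on the chromosome 11 hAT-Tip100 repeat (18 of 20).

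Member tags made up 1.39%, 1.01% and 1.30% of all tags in untreated libraries 1, 2 and 3 and 1.86%, 1.26% and 1.19% in ET1 libraries 1, 2 and 3, so that the groups overlapped. All predicted piRNAs, a set that needs no count threshold, made up 1.37% ± 0.22 of the untreated and 1.59% ± 0.38 of the ET1 tags (SD, n = 3 each; exact permutation p = 0.6, adjusted 0.7 over 3 tests, two-sided). ET1 minus untreated came to 0.22 points, which shrank to 0.0024 without ET1 library 1 and 0.091 without untreated library 2. The members held 88.5% to 92.2% of the predicted piRNA tags in every library. For comparison, catalogued piRNAs made up 1.14% ± 0.36 of the untreated and 1.40% ± 0.016 of the ET1 tags.

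The tags were concentrated on few entries. The single most counted predicted piRNA held 7.18%, 16.5% and 6.67% of the predicted piRNA tags in untreated libraries and 6.36%, 4.92% and 7.18% in ET1 libraries; it was novel_pir8777 in 3 libraries, novel_pir6105 in 2 and novel_pir6634 in untreated library 1. The 10 most counted of each library held 30.3%, 43.3% and 29.3% in untreated and 27.6%, 25.4% and 27.7% in ET1 libraries. Every ET1 library lay below every untreated one. The means were 34.3% ± 7.83 and 26.9% ± 1.28 (SD, n = 3 each; exact permutation p = 0.1, adjusted 0.3 over 3 tests, two-sided), and 0.1 is the smallest p that 3 libraries against 3 can give. ET1 minus untreated came to −7.41 points, and to −2.90 once untreated library 2 was left out. That library had the highest sums of the germ cell, smooth muscle, Sertoli and endothelial lists and the highest share of known miRNAs (45.6%); their part in the result was not tested. Only 2 entries were among the 10 most counted in all 6 libraries, and 21 were so in at least 1. A count of 17 entries covered 50% of the predicted piRNA tags in untreated library 2, against 37 to 55 in the other 5 libraries.

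Tags can also be summed by address, which by construction cannot lower the share of the leading units, and are then given as shares of member tags. The leading repeat of each library held 20.0% to 29.8% of the member tags, and the 5 leading repeats 62.8%, 66.4% and 68.8% in untreated and 75.3%, 71.6% and 66.8% in ET1 libraries. Pooled over the libraries, the 3 leading repeats held 49.7% of member tags, 10 held 85.8%, and 14 held 90.05%. The catalogued piRNAs were more concentrated by entry: their 10 most counted held 68.7% to 84.1% of catalogued piRNA tags.

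**Figure D3:**
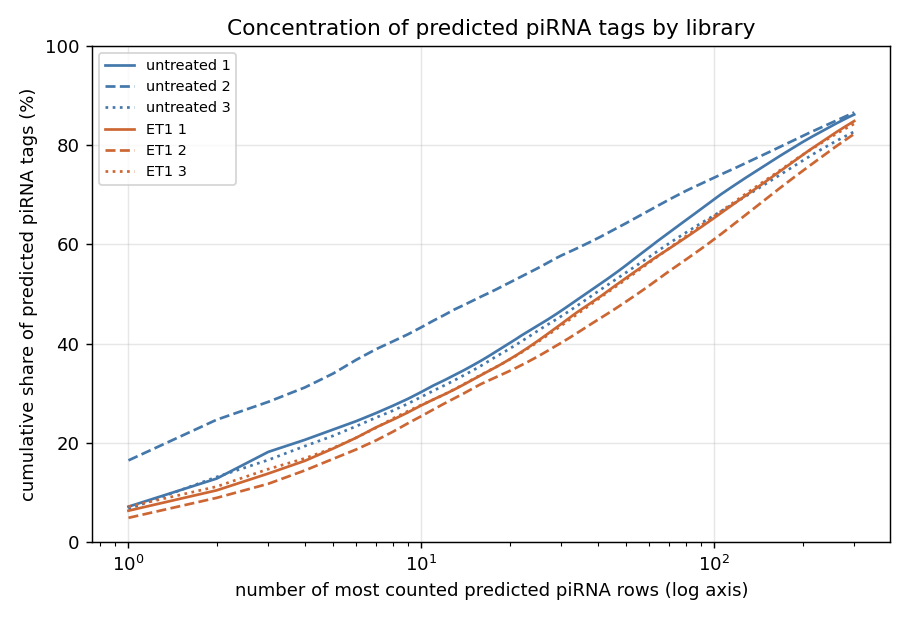
Cumulative share of the predicted piRNA tags of a library (percent) held by its most counted entries, for up to 300 entries on a log axis; blue lines are untreated and orange lines ET1 libraries. The line of untreated library 2 runs above the others, with 43.3% of tags in its 10 most counted entries, and the other 5 lie between 25.4% and 30.3% there.

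Presence and absence have a limit set by the table. No predicted piRNA had a count from 1 to 9 in any library: the lowest of its 10816 counts above 0 was 10, whereas 31641 of 36251 such counts of catalogued piRNAs lay from 1 to 9. A 0 of a predicted piRNA may therefore stand for up to 9 tags, and no fold change is given against it. Of the 26351 predicted piRNAs, 22455 (85.2%) were listed at 0 in all 6 libraries.

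Of the 577 members, 512 (88.7%) were listed in all 6 libraries, 33 in 5, 13 in 4, 12 in 3, 6 in 2 and 1 in a single library. Among the 146 catalogued piRNAs with at least 100 tags in a library, whose counts go down to 1, 145 had a tag in all 6. Counts of at least 100 were reached in all 6 libraries by 174 members and in a single library by 145. Untreated library 2 listed the fewest members, 539, and reached 100 tags for 249 of them; ET1 library 1 listed the most, 568, and reached 100 tags for 440. Over all predicted piRNAs the libraries listed 1851, 1485 and 2180 entries in untreated and 1757, 1846 and 1697 in ET1 libraries, with means of 1839 ± 348 and 1767 ± 75 (SD, n = 3 each; exact permutation p = 0.7, adjusted 0.7 over 3 tests, two-sided); without untreated library 3 the sign of this difference changed.

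The 12 members listed in exactly 3 libraries were set out over the 20 ways of choosing these 3. The 3 untreated libraries alone listed 1 member and the 3 ET1 libraries alone listed 1 member. Untreated library 1 with ET1 libraries 1 and 2 listed 4 (novel_pir13988, novel_pir15499, novel_pir26250 and novel_pir3583). Untreated library 1 with ET1 libraries 1 and 3 listed 2 (novel_pir13982 and novel_pir6270), and untreated library 3 with ET1 libraries 1 and 2 listed 2 (novel_pir13950 and novel_pir8142). Untreated libraries 2 and 3 with ET1 library 1 listed novel_pir16731, and untreated library 3 with ET1 libraries 2 and 3 listed novel_pir26208. The 13 remaining choices listed none. Of the 18 choices that mix the groups, 3 listed more than the 1 member of each treatment group, 2 listed as many and 13 fewer. The members of the mixed choices are named after their values were seen.

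The member listed in the untreated libraries alone was novel_pir3225, on an ERVK fragment of chromosome 10 (43543508 to 43543608, plus strand), with 182, 34 and 138 tags there and 0 in each ET1 library. The fragment itself was not empty in ET1 libraries: its 54 predicted piRNAs summed to 14.5, 3.16 and 30.05 RPM in untreated and 12.03, 10.6 and 2.10 RPM in ET1 libraries, with overlap. The member listed in the ET1 libraries alone was novel_pir26206, on the chromosome X L1 repeat, with 18, 40 and 129 tags there and 0 in each untreated library, although other members on that repeat were counted in every library. Both stood at under 200 tags in every library, and among predicted piRNAs with at least 200 tags in a library none had this pattern. Among all predicted piRNAs, 45 were listed in the 3 untreated libraries alone and 35 in the 3 ET1 libraries alone; the choices that mix the groups had 4 to 45, with a median of 14. None of the 18 mixed choices exceeded the untreated libraries and 1 equalled them, and 3 exceeded the ET1 libraries. No test was made of these counts. In a single library only, novel_pir12041 (chromosome 17, ERVL-MaLR, 55893318 to 55893480) was listed, with 108 tags in ET1 library 2.

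**Figure D4:**
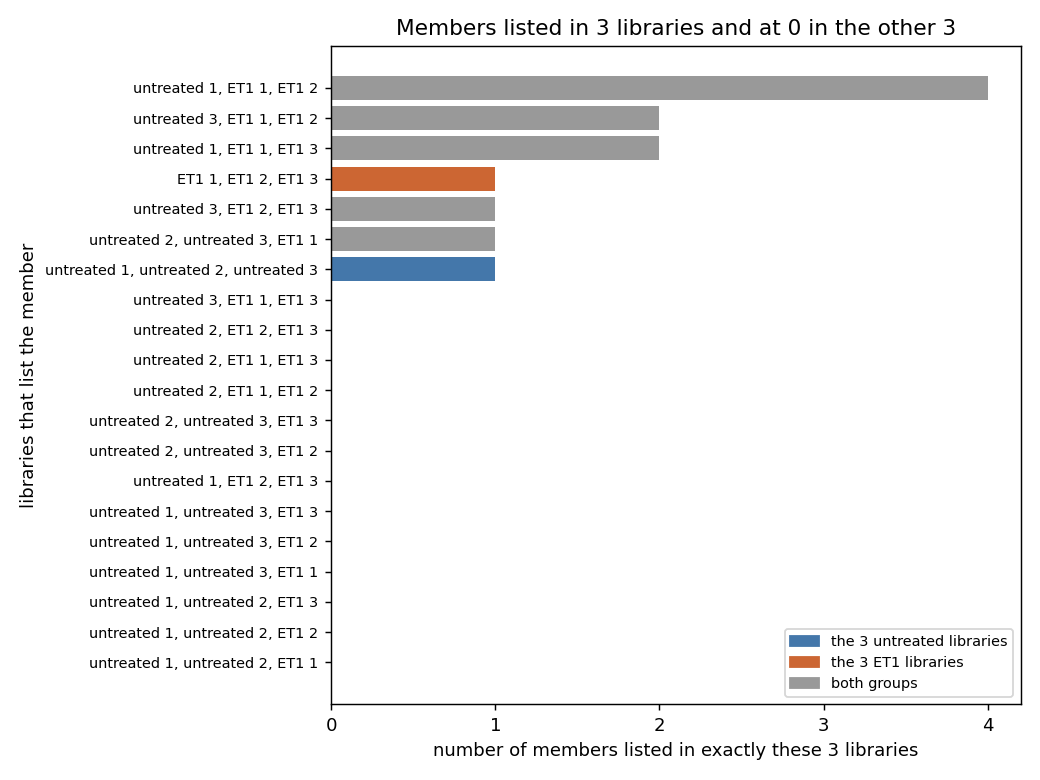
Number of members listed in exactly 3 libraries and at 0 in the other 3, for each of the 20 choices of 3 libraries; the blue bar is the 3 untreated and the orange bar the 3 ET1 libraries, and grey bars mix the groups. The treatment groups hold 1 member each, and the longest bar, of 4 members, is untreated library 1 with ET1 libraries 1 and 2.

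Single members were tested for a difference between ET1 and untreated libraries, in a fit over all entries that are not known miRNAs. Of these entries 2579 passed the filter on low counts, 570 of the 577 members among them. After adjustment none of the 570 members passed the threshold of 0.05, and none of the 2579 entries did (background 0%; edgeR's quasi-likelihood test with Benjamini-Hochberg adjustment; lowest adjusted p = 0.275). At an unadjusted p under 0.05 were 57 members, 29 higher and 28 lower in ET1, which is 10% of those tested against a background of 7.72% (3.37% higher, 4.34% lower). DESeq2 gave an adjusted p for 563 members and called 14 of them (2.49%), 5 higher and 9 lower; its background was 4.33% of 2564 entries (1.52% higher, 2.81% lower), so the members' share was below it. In edgeR without a filter 10 of 577 members were called (1.73%, background 0.176%). Only 911 of the 19323 entries in that background reached 100 tags in a library, as every member did. With those 911 entries alone 1 member was called (0.173%, background 0.11%).

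With TMM, 96 members had no overlap between untreated and ET1 libraries, 50 higher and 46 lower in ET1. That is 16.8% of the members tested, and the background over all 2579 entries was also 16.8% (6.59% higher, 10.2% lower). By RPM of all tags, without TMM, 118 members (20.7% of those tested) had no overlap, 97 higher and 21 lower, against a background of 17.3% (11.7% higher, 5.66% lower). The split between higher and lower thus moved with the scaling: over all tested entries the median log2 fold change stood at 0.02 with TMM and 0.41 with library sizes alone, and over the members at 0.24 and 0.61. Summed over each repeat and scaled by TMM, 91 of the 94 repeats were tested and none passed (background 0%, lowest adjusted p = 0.234 in edgeR). At an unadjusted edgeR p under 0.05 were 12 of the 91 repeats, 2 of them higher in ET1. That share was above its background of 7.89% (108 of 1368 entries and repeats, 47 of them higher). Without overlap were 24 repeats, 5 higher and 19 lower, against a background of 15.1% (6.73% higher, 8.41% lower). By RPM of all tags over the same sums, 23 of the 91 repeats were without overlap, 13 higher and 10 lower. The background was 16.4% (11.3% higher, 5.12% lower). The share of repeats that were lower was above its background in both scalings. The share that were higher was below its background with TMM and above it by RPM.

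The members with the lowest p in each direction did not pass. novel_pir8875, on an ERVL-MaLR fragment in chromosome 14 (104497847 to 104498415, plus strand), had 93, 159 and 136 tags in untreated and 38, 48 and 37 tags in ET1 libraries, with a log2 fold change of −1.95 (SE 0.50; edgeR adjusted p = 0.275). Every ET1 library lay below every untreated one. novel_pir4356, on an ERVL fragment in chromosome 10 (82955393 to 82955521, plus strand), had 28, 23 and 51 tags in untreated and 69, 405 and 415 tags in ET1 libraries, with a log2 fold change of 2.93 (SE 0.78; edgeR adjusted p = 0.293). Every ET1 library lay above every untreated one, but ET1 library 1 was close to the untreated libraries. The 2 members at 0 in one group, novel_pir3225 and novel_pir26206, had the other lowest p-values (edgeR adjusted p = 0.275 for both). In DESeq2 these 4 members were among the 14 called. Another of the 14, chosen after its values were seen, was novel_pir3510 on the chromosome 10 ERVL-MaLR repeat, with 843, 465 and 1200 tags in untreated and 2739, 2942 and 2728 tags in ET1 libraries (log2 fold change 1.51, DESeq2 adjusted p = 0.0048). Its ET1 counts all lay above its untreated counts, but in edgeR no member of that repeat passed (lowest edgeR adjusted p = 0.293).

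Of the 10 most counted members, 3 had each of their ET1 values below each untreated value after TMM scaling. Over all tested entries the share that was lower without overlap was 10.2%. By RPM only novel_pir16254 of these 3 stayed without overlap. novel_pir6105 stood at 8825 ± 931 CPM of tested tags in untreated and 5333 ± 1109 CPM in ET1 libraries (log2 fold change −0.73, SE 0.32; edgeR adjusted p = 0.66). For novel_pir16254 the levels were 3491 ± 400 and 1830 ± 470 CPM (−0.93, SE 0.36; edgeR adjusted p = 0.56), and for novel_pir2189 2900 ± 1108 and 1345 ± 422 CPM (−1.11, SE 0.43; edgeR adjusted p = 0.57; SD, n = 3 each throughout). The other 7 overlapped between the groups. novel_pir8777 was at −0.97, novel_pir13859 on the chromosome 17 fragment at −0.996 and novel_pir6634 at −0.69, with a sign that changed without untreated library 1 (0.81). The 4 chromosome X members novel_pir26333, novel_pir26341, novel_pir26321 and novel_pir26335 were at 0.23, 0.52, 0.35 and 0.09, and without ET1 library 1 all but novel_pir26341 were below 0.

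**Figure D5:**
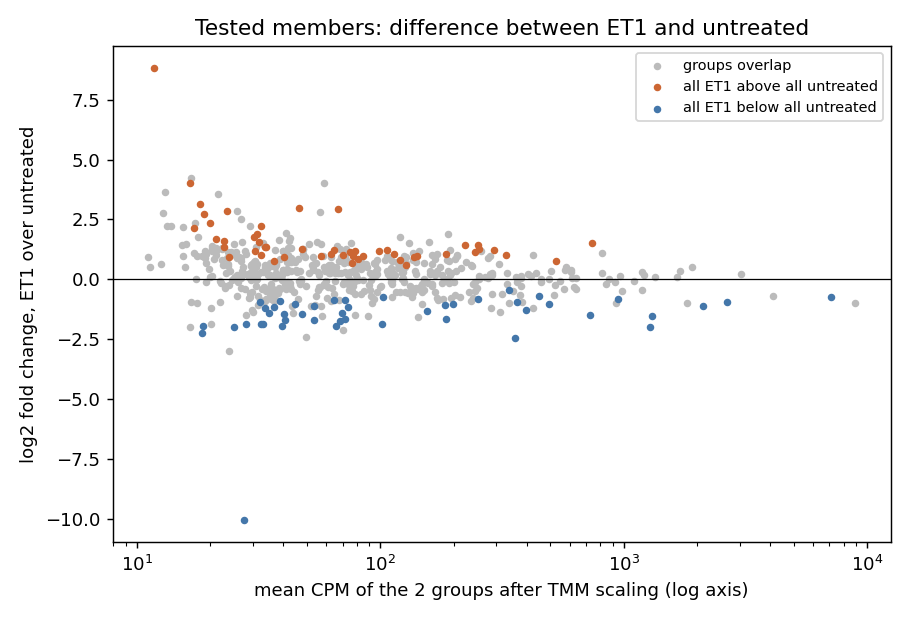
Log2 fold change of ET1 over untreated for the 570 tested members against their mean level in CPM after TMM scaling (log axis); each point is a member, orange where all ET1 libraries lie above all untreated ones, blue where they lie below, grey where the groups overlap. The 50 orange and 46 blue points lie on both sides of 0, and the extremes at −10.02 and 8.80 are fitted values of the 2 members listed at 0 in one group, which are no measure of size.

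The members with the smallest range after TMM scaling were chosen for that range. novel_pir15605, on the second Trpm3 L1 fragment, had 77, 87 and 143 tags in untreated and 110, 124 and 114 in ET1 libraries, a 1.45-fold range after TMM scaling. novel_pir19810, on an ERVL-MaLR fragment in chromosome 5 (17118211 to 17118485, minus strand), had 170, 132 and 200 tags in untreated and 181, 223 and 220 in ET1 libraries, a 1.59-fold range. For the 512 members listed in all libraries the ratio of highest to lowest RPM ran from 1.37 to 99.3, with a median of 5.38, against 1.87 for novel_pir15605 and 1.65 for novel_pir19810 on the same scale. At the threshold itself, novel_pir16165 (71, 34, 76, 100, 90 and 55 tags, untreated then ET1) and novel_pir6270 (19, 0, 0, 100, 0 and 89) lay just inside, and novel_pir15574 (0, 12, 12, 24, 32 and 99) and novel_pir16147 (78, 52, 46, 99, 56 and 60) just outside.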

How the data were processed

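Small RNA libraries of peritubular myoid cells, 3 untreated and 3 treated with ET1, followed the BGI protocol, per the labels. The authors deposited a table of raw tag counts per entry and library, per the file headers. Bowtie2 and mm10 are named in the submitters' processing notes; the piRNA predictor, its minimum count, mismatches and the treatment of tags with several matches are not given in the sources used here. The TPM columns of the same table and the deposited comparison of untreated and ET1 libraries, which holds no predicted piRNA, were not used here. RPM is the count per 1000000 tags of all entries.

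All entries except known miRNAs and the 4 genome-region totals were fitted together in edgeR 4.0.16 (R 4.3.3), with TMM scaling, filterByExpr by group, and a two-sided quasi-likelihood test (robust) of the treatment without covariates, with Benjamini-Hochberg adjustment and a threshold of 0.05. The script was tested on simulated data. CPM is per 1000000 tested tags after TMM. Shares over all predicted piRNAs were compared by exact permutation in scipy 1.17.1. Alternatives were DESeq2 1.42.0, library sizes alone, all entries together, other filters, the replicate number as a block, other thresholds and leaving out each library; after the data were seen, zeros set to 9 tags, sums over repeats (by TMM and by RPM), and the share without the chromosome X repeat were added.

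Members named were the 10 with the highest mean share, the 2 of lowest p in each direction where none passed, members listed in a single group or a single library, those next to the threshold, and the 2 with the smallest CPM range; others were chosen after their values were seen. The members and lists were chosen with earlier results of these data known. Replicate libraries were compared over predicted piRNAs and differed beyond counting error (chi-square per degree of freedom 28.5 to 66.9). Each was kept as its own library. The comparison cannot tell separate cultures from repeated preparations of the same RNA. Library totals of 18127265 to 20895432 tags make counting error small for the abundant members.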

Additional observations from a re-analysis of the deposited data

How the results depend on the processing

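The count of called members was 0 in edgeR in all fits but 2: it was 10 without a filter (1.73% of members, background 0.176% of 19323 entries) and 1 with entries of at least 100 tags in at least 1 library (0.173%, background 0.11% of 911). Of the 19323 entries only 911 reached 100 tags in a library, as every member did, so that background is mostly of entries with fewer tags. In DESeq2 the count of called members was 14 (2.49%, background 4.33%). With 1 library left out it was 0 to 0, with 20 to 79 members at an unadjusted p under 0.05. Same-numbered libraries of the groups did not deviate together (correlations 0.089, −0.088 and 0.0076), and each untreated library correlated best with an ET1 library of another number; with the replicate number as a block the count was 0, with 36 members at an unadjusted p under 0.05 in place of 57. The number of members was 902 with a threshold of 50 tags and 373 with 200. Members listed in one group alone numbered 10 with the threshold of 50, 0 with 200, and 2 to 8 with 1 library left out; requiring at least 10 tags or allowing 2 could change nothing, because the table holds no predicted count from 1 to 9. With signs permuted within replicate numbers (replicate block; smallest possible exact p 0.25), the share of all tags (0.22 points) had an exact p of 0.5, the share of the 10 most counted (−7.41 points) 0.25 and the number of entries listed (−72) 0.75. As a share of tags outside the 4 genome-region totals, the difference was 1.11 points (exact p = 0.2). That base is smaller, so these points are not on the scale of the 0.22 points. The 4 totals held 44.3% to 58.5% of the untreated and 59.7% to 61.4% of the ET1 tags. Without the chromosome X repeat the share of all tags differed by 0.13 points (exact p = 0.5). With 1 library left out, the difference in the share of all tags ran from 0.0024 to 0.35 points. For the 10 most counted it ran from −9.92 to −2.90 points, and for entries listed from −248.8 to 98.7, the last without untreated library 3.

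Of the log2 fold changes of named members under the alternatives, 182 kept their sign and side of the threshold, 7 passed in addition (novel_pir3225, novel_pir26206, novel_pir4356 and novel_pir8875) and 19 changed sign. novel_pir15605 was at 0.27 with library sizes alone, 0.11 with all entries together, 0.0702 with zeros at 9 tags, and −0.30 to 0.067 with 1 library left out. novel_pir26335 was at −0.028 without a filter, −0.12 with the block, and −0.40 to 0.596 with 1 library left out. novel_pir19810 was at −0.076 without a filter, and −0.20 to 0.18 with 1 library left out. novel_pir6634 was at 0.043 with the block and −1.15 to 0.81 with 1 library left out. With 1 library left out novel_pir26333 ran from −0.32 to 0.68 and novel_pir26321 from −0.27 to 0.93. The cause was not tested.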
